A study of Mus musculus with 4 samples.

Results

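The diet by genotype interaction asks, gene by gene, whether sucrose feeding went with the same difference in expression in mice heterozygous for Glo1 as in wild-type mice. It was computed as the log2 difference between sucrose and starch in Glo1 heterozygous mice minus the same difference in wild-type mice, so it is positive where the sucrose level exceeded the starch level by more in heterozygous mice, and negative where it did so by less. All 4 arrays of the series enter it. Of the 56605 probes on the array, 42094 were well above background on every array, and those that carried a gene symbol gave 20655 genes, each read by its brightest probe.

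The tissue was the prefrontal cortex of 3-month-old mice of strain B6J, and all groups shared that strain, age and tissue. The labels give the genotype as Glo1 heterozygous and do not describe the allele. Wild-type mice on starch served as the control, and the other groups were wild-type mice on sucrose, Glo1 heterozygous mice on starch and Glo1 heterozygous mice on sucrose, with each diet given from weaning on postnatal day 21 for about 70 days. For each group 3 RNA samples were pooled and 200 ng of total RNA went onto 1 one-colour array, so no group has a replicate, no value below has an error over mice or a p-value, and the spread between the pooled samples was not measured. Levels are processed signals divided by the array's 75th percentile, and levels of a gene are always given in the order wild-type starch, wild-type sucrose, heterozygous starch, heterozygous sucrose.

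Glyoxalase 1 detoxifies methylglyoxal, a reactive by-product of sugar breakdown that modifies proteins. In a factorial design an interaction is a departure from the sum of the diet effect and the genotype effect. Because the same 4 values can depart from additivity through any one of the arrays, the level on each array has to be read beside the interaction itself.

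The arrays had 75th percentiles between 1780 and 1929 intensity units and 77.6% to 80.2% of their spots well above background, with no saturated spot. They shared a slide with a separate position for every group, and an effect of position on the slide cannot be told apart from one of group. Glo1, read at chr17:30729951-30730010 (mm9), had levels of 4.04, 5.53, 2.74 and 3.04. The heterozygous arrays were the lower pair on either diet, and the interaction for Glo1 was -0.30, with its 3 probes between -0.31 and -0.23. Summed markers of excitatory neurons ranged from 62.1 to 85.2 over the arrays and those of astrocytes from 20.1 to 22.9. Markers of tissue bordering the cortex were also present and uneven. The sum of 5 choroid plexus markers was 0.793, 2.20, 0.842 and 67.7, of which Ttr alone made up 0.259, 1.42, 0.101 and 58.7. The sum of 5 striatal markers was 4.90, 11.4, 9.78 and 4.57. For 5 olfactory bulb markers the sums were 4.16, 0.962, 4.10 and 2.37. All markers of these 3 sets were measured on every array, and all are members of the gene lists described below. Summed markers were also uneven for melanocytes (0.225, 0.193, 1.40 and 0.727), blood (119, 59.4, 100.1 and 66.0) and meninges (4.51, 3.96, 4.61 and 6.60), the last highest on heterozygous sucrose. For ependyma 3 of 4 markers were measured, and their sums were 0.339, 0.284, 0.241 and 1.01, also highest on heterozygous sucrose. In pooled bulk RNA, fewer cells of a type and less RNA per cell cannot be told apart.

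An interaction of 1 or more in size, which is a 2-fold departure from additivity, was counted. By this rule 430 genes were positive (2.08% of 20655) and 164 negative (0.794%), 2.88% in all. The median over all genes was 0.00, 50.5% of genes lay above 0 and 49.5% below, and the SD over genes was 0.41. Among the 13033 genes brighter than the median probe, 69 were positive (0.529%) and 20 negative (0.153%), 0.683% together. Larger values were few, with 126 genes at 2 or more in size and 41 at 3 or more. Of the 9065 genes with at least 2 measured probes, 30 (0.331%) had every probe at 1 or more and 8 (0.0883%) every probe at -1 or less.

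The array that carries an interaction differed between genes. A gene was assigned to an array when that array stood at least 1 (log2) from each of the other 3 and those 3 lay within 1 of each other. The sign of the interaction fixes which of these classes a gene can enter. Of the 430 positive genes, 132 (30.7%) had their departure on the heterozygous sucrose array, which was high, 40 were high on wild-type starch and 26 were low on wild-type sucrose. Over all genes, 0.707% were high on heterozygous sucrose alone and 0.15% low on wild-type sucrose alone. The remaining 232 had no single array apart. Of the 164 negative genes, 31 were high on heterozygous starch alone and 23 on wild-type sucrose alone, 105 had no single array apart, and 2 were low on heterozygous sucrose alone. Read by diet differences, 181 positive genes passed 1 in heterozygous mice only and 103 in wild-type mice only, against 42 and 44 of the negative genes. Diet differences past 1 in size were found for 1.48% of all genes in wild-type and 1.77% in heterozygous mice. Diet differences of 1 or more in opposite directions occurred for 7 positive and 12 negative genes, which together are 0.092% of all genes.

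**Figure D1:**
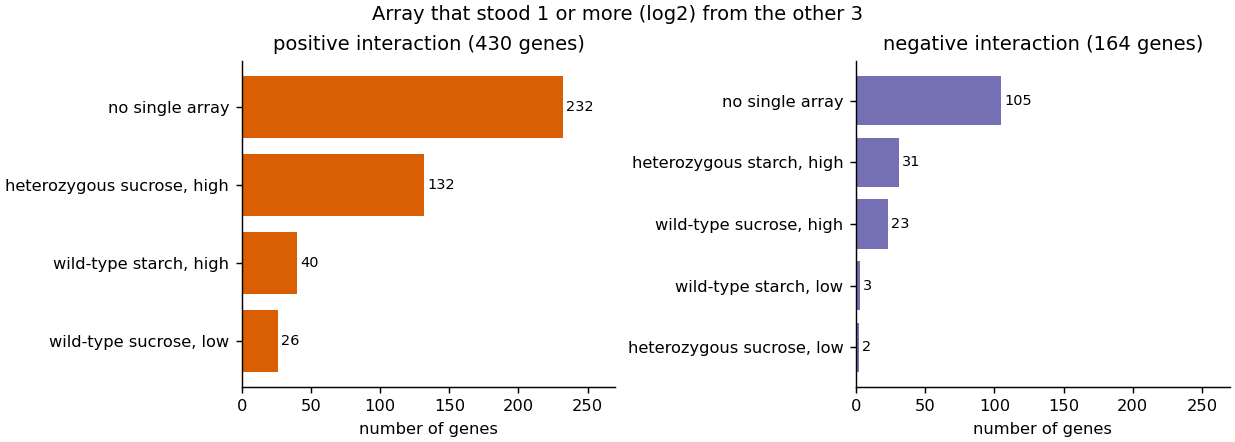
Bars give the number of genes whose level on the named array stood at least 1 (log2) from the other 3, with those within 1 of each other, for genes with an interaction of 1 or more (left) and of -1 or less (right). High values on heterozygous sucrose account for 132 of 430 positive genes, and 2 of 164 negative genes were low there.

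Agreement between probes of a gene went with signal strength. In the dimmest quartile of probes 761 (7.23%) passed 1 in size, against 28 (0.266%) in the brightest and 2.74% over all measured probes. Where the gene had another measured probe, that probe passed 1.5-fold in the same direction for 52 of 293 probes (17.7%) of the dimmest quartile. That share was 61 of 120 (50.8%) for the next quartile, then 35 of 50 (70.0%), and 13 of 19 (68.4%) among the brightest probes. The spot-to-spot SD of the interaction was 0.0578 for the 291 repeated probes of the brightest quartile, and 0.229 for a spike-in control at a level of 0.0332. For 2 spike-ins at levels of 0.00373 and 0.00380 it was 0.914 and 1.14. This SD covers the spread between spots, not between mice. Normexp, a background correction that adds an offset of 50 intensity units and so shrinks differences between dim signals, gave smaller interactions for 72 of 76 named genes past 1, and for those of them described below its value is given where it differs by over 1.5 times. Of the 594 genes past 1 in size, 492 (82.8%) had a single probe, against 56.1% of all genes.

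**Figure D2:**
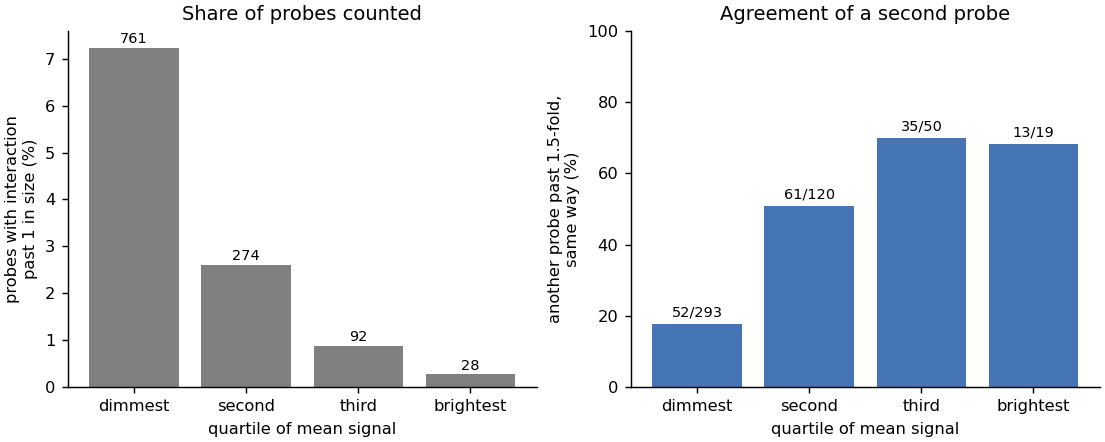
Left, the percentage of probes in each quartile of mean signal with an interaction past 1 in size, with the number above each bar. Right, among those with another probe of the same gene, the percentage whose other probe passed 1.5-fold the same way; the share goes from 17.7% in the dimmest quartile to 70.0% in the third.

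Genes of the choroid plexus, the epithelium that secretes cerebrospinal fluid and transports hormones and ions into it, had the highest median interaction of all 27 lists, and Ttr had the highest value of all genes. The lists and their members were chosen with earlier results of these data known. Ranks and shares of lists, here and below, are therefore not independent of these values. Of 32 measured list members, 25 were at 1 or more, where 2.08% of all genes were, and none at -1 or less. All 32 were above 0, and the median was 2.04. Wild-type mice had a median diet difference of 0.11 and heterozygous mice one of 1.72. For 18 of the 32 the heterozygous sucrose array stood apart from the other 3 and high, as it did for 0.707% of all genes.

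The first 30 bases of each 60-base probe are shown for a gene at each end of the interaction, Folr1 of the choroid plexus and Drd1 of the striatum, because each was read at separate positions. The Folr1 probes lie at chr7:109006846-109006905 and chr7:109016972-109017031, and the Drd1 probes at chr13:54146585-54146644 and chr13:54147277-54147336, all on the minus strand of build mm9, and the bases are written 5′ to 3′.
Folr1 probe 1: gtggtggggctctgacagcctctttaataa
Folr1 probe 2: ctgggctttttcctgtgctccgagtaggtg
Drd1 probe 1: gtgttacgtactttgaatgttttctcagct
Drd1 probe 2: ctcaagaagaaatccaactttagatttctg

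Folr1 encodes the folate receptor that carries folate across the choroid plexus. Its first probe had levels of 0.0772, 0.0976, 0.0356 and 2.72. The first 3 arrays were low and heterozygous sucrose was high, and wild-type mice had a diet difference of 0.34 and heterozygous mice of 6.26, an interaction of 5.92. The second probe read 0.0156, 0.0236, 0.0176 and 0.0907 and gave 1.77. Both probes had the same array on top, with interactions that differ by more than 4 on the log2 scale.

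Ttr, which encodes transthyretin, the carrier of thyroid hormone and retinol in cerebrospinal fluid, had levels of 0.259, 1.42, 0.101 and 58.7. Heterozygous sucrose was far above the rest, and wild-type sucrose was also above both starch arrays. Its 2 probes gave interactions of 6.72 and 8.49. Kcne2, a potassium channel subunit of the apical membrane, read 0.0126, 0.0419, 0.0130 and 1.39 with an interaction of 4.997. As for Ttr, wild-type sucrose was above both starch arrays, with diet differences of 1.74 and 6.73. Krt18, an epithelial keratin, read 0.0215, 0.0437, 0.0205 and 0.855 (4.36). It too was higher on sucrose than on starch in both genotypes, by 1.02 and 5.38.

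Other members were low on the first 3 arrays. F5, coagulation factor V, had levels of 0.0509, 0.0546, 0.0508 and 0.957 and an interaction of 4.14. Steap1, a membrane protein of the STEAP family, read 0.0389, 0.0383, 0.0287 and 0.603 (4.42). Sostdc1, a secreted antagonist of BMP and Wnt signals, read 0.0278, 0.0476, 0.0345 and 1.03 (4.12). In these 3 genes the diet differences of wild-type mice were 0.10, -0.02 and 0.78. Kcnj13, an inward rectifier potassium channel, gave a smaller value from a brighter probe, at 0.346, 0.374, 0.463 and 2.28 (2.19).

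Tmem27 and Aqp1 did not share that pattern. Tmem27, a collectrin-family membrane protein, read 0.0434, 0.00882, 0.00797 and 0.0665. It was high on wild-type starch as well as on heterozygous sucrose, so diet differences of -2.30 and 3.06 ran in opposite directions and gave 5.36, or 1.98 with normexp. Aqp1, the water channel of the choroid plexus, read 0.274, 0.0634, 0.274 and 0.946. Wild-type sucrose was the low array and both starch arrays were equal, with diet differences of -2.11 and 1.79 and an interaction of 3.90. The smallest value of the list was that of Slc13a4, a sulfate transporter, at 0.06.

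Probes that did not reach background on every array lie outside the interaction, and several list members are among them. Slc4a5, a bicarbonate transporter of the choroid plexus, was at least 86.8-fold higher on heterozygous sucrose than on heterozygous starch. Calml4, a calmodulin-like protein, was at least 64.6-fold higher and Krt8, the partner of Krt18, at least 22.9-fold. Lmx1a, a transcription factor of the roof plate, was at least 8.84-fold higher. These are lower bounds, each the level on heterozygous sucrose divided by the level of the dim probe on heterozygous starch or, where that is higher, by the lowest level marked well above background there. On wild-type sucrose Krt8 had a level of 0.0286, above both starch arrays.

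**Figure D3:**
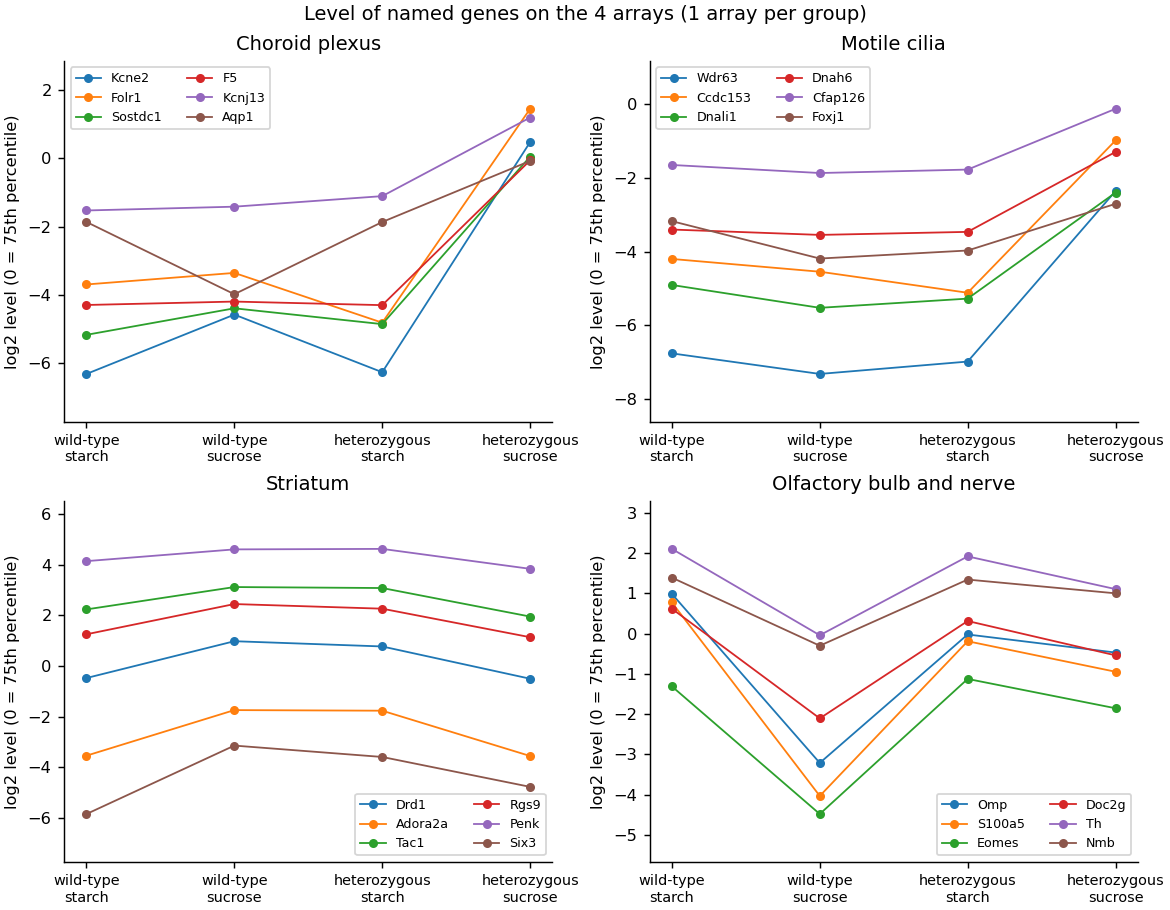
Each panel plots the log2 level of 6 genes on the 4 arrays, where 0 is the array's 75th percentile and a line joins the values of 1 gene. The plotted choroid plexus and cilia genes are highest on heterozygous sucrose, the striatal genes are high on the middle arrays, and the olfactory genes are lowest on wild-type sucrose.

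Genes of motile cilia, which ependymal cells use to move cerebrospinal fluid, followed at smaller size. Of 53 measured members, 17 were at 1 or more (all genes: 2.08%) and 1 at -1 or less (all genes: 0.794%). The median was 0.58, and 48 were above 0, as were 50.5% of all genes. The median diet difference was -0.01 in wild-type and 0.58 in heterozygous mice. In 12 of the 53 the heterozygous sucrose array stood apart and high, as it did for 0.707% of all genes. Over the members brighter than the median probe alone, the list median was 0.14.

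Wdr63, a subunit of inner dynein arms, had levels of 0.00926, 0.00629, 0.00794 and 0.195 and an interaction of 5.18. Its first 3 values sit near the lowest level that counts as above background, and with normexp the interaction was 2.61. Ccdc153, an axonemal protein, read 0.0545, 0.0429, 0.0289 and 0.505 (4.47), and Dnali1, a dynein light intermediate chain, read 0.0334, 0.0218, 0.0259 and 0.189 (3.49, or 2.11 with normexp). Dnah6, a dynein heavy chain, read 0.0947, 0.0856, 0.0906 and 0.407 (2.31). In each of the 4 genes heterozygous sucrose was the only high array and the other 3 differed by less than 1 (log2). Cfap126, which positions basal bodies, had 2 probes at 1.77 and 1.87. Its levels were 0.318, 0.274, 0.292 and 0.914, with heterozygous sucrose the high one.

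Foxj1, the transcription factor that drives motile ciliogenesis, read 0.111, 0.0549, 0.0639 and 0.153. Both the wild-type starch and the heterozygous sucrose arrays were high, so opposite diet differences of -1.01 and 1.26 made up its interaction of 2.28. Dnah11, another dynein heavy chain, read 0.124, 0.0239, 0.161 and 0.135 (2.12, or 1.13 with normexp). There the wild-type sucrose array was low and the other 3 were alike. Morn3 was the one member at -1 or less, at 0.0331, 0.0367, 0.0960 and 0.0473, where heterozygous starch was high, and its 3 probes ranged from -1.17 to 1.45. Rfx3, a transcription factor of ciliogenesis, read 3.54, 3.21, 3.58 and 3.92 (0.28). Of members that did not reach background on every array, Tmem212 was at least 39.8-fold, Ttc29 at least 4.85-fold, Dnah12 at least 2.91-fold, Spag17 at least 2.43-fold and Ak7 at least 1.37-fold higher on heterozygous sucrose than on heterozygous starch. Stoml3 was highest on wild-type starch, at 0.0296, 0.00210, 0.0109 and 0.0181, and Sntn was above background on no array.

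Promoters of cilia genes often carry sites for RFX factors, which act with Foxj1. The letters GTTGCC, the core of an RFX site, searched on both strands with no other motif, were found in the promoters (250 bases before to 50 after the start) of 25 of 45 matched list genes (55.6%), against 3821 of 27025 genes (14.1%) in the RefSeq table. They were in 4 of 14 members with an interaction of 1 or more and 21 of 31 under 1. Among choroid plexus genes 4 of 26 had it (15.4%). The windows below show the match, in capitals, for the 2 members with the largest interactions that carry it wholly within the upstream bases, from the RefSeq build GRCm38.p6 and in the direction of the gene. Ccdc153 lies at chr9:44240498-44240557 on the plus strand, and the Lrrc23 windows at chr6:124779852-124779911 and chr6:124779734-124779793 on the minus strand.
Ccdc153: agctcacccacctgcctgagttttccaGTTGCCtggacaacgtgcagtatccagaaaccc
Lrrc23 distal: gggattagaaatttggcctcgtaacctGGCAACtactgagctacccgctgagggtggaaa
Lrrc23 proximal: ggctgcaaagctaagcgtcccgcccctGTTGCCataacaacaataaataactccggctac
The matches begin 152, 157 and 39 bases before the start. Lrrc23, a radial spoke protein, had levels of 0.126, 0.0904, 0.125 and 0.308 and an interaction of 1.79, with heterozygous sucrose high.

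Markers of striatal projection neurons had the lowest median interaction of all 27 lists. These GABAergic neurons receive cortical and dopaminergic input and divide into a direct pathway with Drd1 and an indirect pathway with Drd2 and Adora2a. Of 36 measured members, 18 were at -1 or less, where 0.794% of all genes were, and 1 at 1 or more (all genes: 2.08%). A total of 31 were below 0 (all genes: 49.5%), and the median was -1.03. The median diet difference was 0.46 in wild-type and -0.57 in heterozygous mice. A group of 31 members was higher on sucrose in wild-type and lower on sucrose in heterozygous mice, and no member of the list had the heterozygous sucrose array apart, high or low. Of all genes 19.7% had that pair of signs.

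Drd1 encodes the dopamine receptor of the direct pathway. Its first probe had levels of 0.720, 1.97, 1.71 and 0.706 and its second 0.195, 0.513, 0.443 and 0.168. On both probes wild-type sucrose and heterozygous starch were high and the other 2 arrays were low and near each other. The first probe gave diet differences of 1.45 and -1.27, and the interactions of the 2 probes were -2.73 and -2.80. Adora2a, the adenosine receptor of the indirect pathway, read 0.0861, 0.299, 0.295 and 0.0853 (-3.59). It had the same pair of high arrays, as did Six3, a transcription factor of indirect pathway neurons, at 0.0174, 0.113, 0.0831 and 0.0367 (-3.88, or -1.92 with normexp).

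Signalling members were brighter. Rgs9, which shortens dopamine receptor signals, had levels of 2.38, 5.45, 4.80 and 2.20 and an interaction of -2.32, with its 5 probes from -2.40 to -0.57. Wild-type sucrose and heterozygous starch were the high pair. Of the neuropeptides, Tac1, the substance P precursor of the direct pathway, read 4.71, 8.68, 8.45 and 3.87 (-2.01), and Penk, the enkephalin precursor of the indirect pathway, read 17.6, 24.3, 24.7 and 14.3 (-1.25). Both pathways were thus represented among the negative members. The 2 probes of Penk gave -1.25 and -1.09, while those of Tac1 ranged from -2.01 to 0.03.

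Gpr6, a receptor of indirect pathway neurons, read 0.121, 0.424, 0.273 and 0.130, with 2 probes at -2.88 and -1.21. Ido1, which degrades tryptophan, read 0.0438, 0.163, 0.0886 and 0.0449 (-2.88), and Serpina9, a serine protease inhibitor, read 0.240, 0.537, 0.423 and 0.149 (-2.67). In all 3 the highest array was wild-type sucrose. Sh3rf2, a scaffold protein with SH3 domains, read 0.0137, 0.0748, 0.0719 and 0.0336, and its 2 probes gave -3.54 and -0.90, the first -1.47 with normexp. Drd3, the dopamine receptor of the ventral striatum and islands of Calleja, was the 1 member at 1 or more, of 5 above 0. Its levels were 0.0587, 0.0119, 0.0101 and 0.0105 (2.35, or 1.01 with normexp). Only wild-type starch was high. Members nearer 0 included Arpp21, a cAMP-regulated phosphoprotein, at -0.53, Pde1b, a phosphodiesterase, at -0.51 and Ptpn5, a tyrosine phosphatase, at -0.27. Foxp2 (-1.89) and Tac1 (-2.01), which are also in cortical lists, passed -1.

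Genes with the striatal order of arrays outside the list included Slc10a4, a transporter of cholinergic and monoaminergic vesicles, at 0.0424, 0.202, 0.154 and 0.0584 (-3.65). Slc5a7, the choline transporter of cholinergic neurons, read 0.0504, 0.108, 0.0774 and 0.0407, with 2 probes at -2.07 and -2.02, the brighter at -1.32 with normexp. Nts, the neurotensin precursor, read 0.210, 0.367, 0.511 and 0.161 (-2.47), and Cartpt, the precursor of CART peptides, read 0.684, 1.30, 1.08 and 0.578 (-1.82). All 4 had wild-type sucrose and heterozygous starch above the other 2 arrays. The summed striatal markers had that order too, at 4.90, 11.4, 9.78 and 4.57, and their part in these 4 values was not tested. Oprk1, the kappa opioid receptor, was highest on wild-type sucrose. Its brighter probe read 0.184, 0.645, 0.289 and 0.342 (-1.57) and its other probe 0.0439, 0.151, 0.0766 and 0.0536 (-2.30), which is the striatal order.

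**Figure D4:**
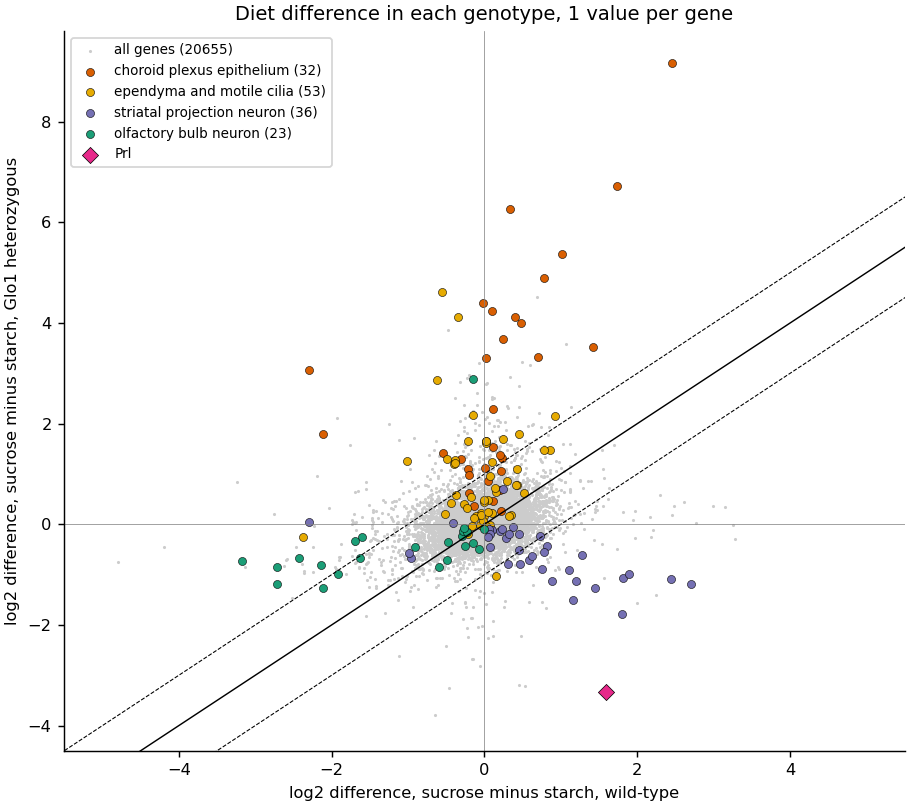
Each point is a gene, with the log2 diet difference (sucrose minus starch) of wild-type mice on the horizontal axis and of heterozygous mice on the vertical axis; the solid line marks equal differences (interaction 0) and the dashed lines an interaction of 1 in size. Of 32 choroid plexus genes 25 lie on or above the upper dashed line, 31 of 36 striatal genes lie to the lower right of the origin, and olfactory genes lie to the left.

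Olfactory bulb markers had positive interactions of another shape. Of 23 measured members, 8 were at 1 or more (all genes: 2.08%) and none at -1 or less. The median was 0.45, and 17 were above 0 (all genes: 50.5%). All 23 were lower on sucrose than on starch in wild-type mice and 22 of 23 in heterozygous mice, with median diet differences of -0.60 and -0.45. Of all 20655 genes, 10299 were higher on sucrose in wild-type mice and 10344 in heterozygous mice. All members at 1 or more except Lhx9 were lower on sucrose in both genotypes. Their smaller deficit in heterozygous mice therefore follows from that cutoff. For 5 members wild-type sucrose was the array apart, low, against 0.15% of all genes.

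Eomes, a transcription factor of mitral and tufted cells, had levels of 0.403, 0.0449, 0.458 and 0.277 and an interaction of 2.44. Wild-type sucrose was the low array and the other 3 were near each other. Doc2g, a gene of mitral cells, read 1.53, 0.232, 1.24 and 0.687 (1.87), and Shisa3, a membrane protein that retains Wnt and FGF receptors, read 0.538, 0.1005, 0.522 and 0.327 (1.75). Th, the enzyme that makes dopamine in periglomerular cells, read 4.29, 0.971, 3.77 and 2.15, with 2 probes at 1.33 and 1.51. Calb2, the calcium buffer calretinin, read 0.436, 0.144, 0.384 and 0.321 (1.34), and Nmb, neuromedin B, read 2.62, 0.811, 2.53 and 1.998 (1.35). In each of these genes wild-type sucrose was lowest and heterozygous sucrose was below heterozygous starch.

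Genes in no list also had this shape, among them 2 markers of olfactory sensory neurons, whose axons end in the bulb. Omp, olfactory marker protein, read 1.98, 0.108, 0.984 and 0.721 (3.75), and S100a5, a calcium-binding protein, read 1.71, 0.0612, 0.876 and 0.518 (4.04). Ms4a15, a 4-pass membrane protein, read 1.30, 0.149, 1.51 and 0.841, with 2 probes at 2.29 and 2.58. Wild-type sucrose was lowest in all 3. The summed olfactory bulb markers were lowest there as well (0.962 against 2.37 to 4.16), and their part in these values was not tested. Lhx9, a transcription factor counted in the list, had another pattern at 0.0401, 0.0361, 0.0363 and 0.267, with heterozygous sucrose the high array and 2 probes at 2.92 and 3.03.

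Hormone genes were split. Of 19 measured members of the pituitary and hypothalamic list, 3 were at 1 or more (all genes: 2.08%) and 2 at -1 or less (all genes: 0.794%), and the median was -0.05. Prl, prolactin, had the lowest interaction of all genes, -4.92, from levels of 0.0101, 0.0305, 0.106 and 0.0105. Heterozygous starch was highest and wild-type sucrose second, from a single probe near background on the other 2 arrays. With normexp the value was -1.93, smaller in size than that of Adora2a (-2.76). Gh, growth hormone, was not above background on every array and was likewise highest on heterozygous starch, at 0.0144, 0.0160, 0.0446 and 0.00761. Tshb, Pou1f1 and Pomc, further pituitary genes, stayed at -0.41, -0.19 and -0.05.

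Oxt, oxytocin, read 0.319, 0.0696, 0.0804 and 0.155 (3.15), with wild-type starch high, but its other probe gave 0.50. Trh, the thyrotropin-releasing hormone precursor, read 1.98, 0.329, 1.18 and 0.732 (1.90), which is the olfactory bulb order with wild-type sucrose lowest. Avp, vasopressin, gave 1.53 (0.64 with normexp) from levels of 0.0370, 0.0165, 0.0214 and 0.0275, all of them low.

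The other lists, with the hormone list included, held 578 genes outside the choroid plexus, cilia, striatal and olfactory lists. Of these, 14 (2.42%) passed 1 in size. That share was 2.88% for all genes but 0.683% for genes brighter than the median probe. Most members of these lists were that bright, as were 69 of 70 ribosomal protein genes. Of 35 immediate early genes none passed 1 in size (median -0.16). Dusp1, a MAP kinase phosphatase, was the largest in size at -0.86, with levels of 2.33, 3.08, 3.24 and 2.36. Fos, the AP-1 subunit, had 1.89, 1.21, 2.28 and 0.968 and -0.60. Both were lower on heterozygous sucrose than on heterozygous starch, but only Fos was also lower on sucrose in wild-type mice. Of 24 clock genes none passed 1, with a median of -0.23 and 18 of 24 below 0 (all genes: 49.5%). Npas2, a partner of the clock protein BMAL1, was at -0.60. Among 29 cortical excitatory layer genes the median was -0.27, 20 were below 0 (all genes: 49.5%) and 1 was at -1 or less (all genes: 0.794%). That member was Foxp2, a transcription factor of deep layers that is also in the striatal list, at 0.0480, 0.117, 0.0772 and 0.0506 (-1.89, or -1.06 with normexp). Its higher arrays were wild-type sucrose and heterozygous starch. Tbr1, another transcription factor of deep layers, read 13.9, 18.5, 15.7 and 13.5 (-0.63), and Ctgf, a subplate marker, read 2.53, 2.64, 3.03 and 1.66 (-0.93). Tbr1 and Ctgf did not reach 1 in size.

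Some gene groups had diet medians of like size in both genotypes. For 25 endoplasmic reticulum chaperone genes, which fold secreted proteins, the median diet differences were -0.34 (wild-type) and -0.35 (heterozygous), and the median interaction was 0.06. For 17 cytosolic heat shock genes the medians were -0.23, -0.26 and 0.06. Immediate early genes also had like diet medians, -0.36 and -0.48. Blood and haem synthesis genes had negative diet medians in either genotype, the smaller one in heterozygous mice, at -0.79 and -0.47. Their median interaction was 0.37, and 16 of 19 were above 0 (all genes: 50.5%). Itga2b was the 1 member past 1, at 1.17, or 0.39 with normexp. Alas2, the erythroid haem synthesis enzyme, read 1.27, 0.405, 0.969 and 0.531 (0.78), and Hbb-b2, a haemoglobin chain, read 9.64, 3.01, 6.67 and 3.95 (0.93). Interferon-stimulated and antigen presentation genes had diet medians of -0.68 and -0.32, and 21 of 30 had an interaction above 0 (all genes: 50.5%). Bst2, an antiviral membrane protein, was the member past 1, at 0.720, 0.312, 0.431 and 0.461 (1.30), with wild-type starch highest and wild-type sucrose lowest.

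In the glyoxalase, glutathione and carbonyl detoxification list, 1 of 34 genes was at 1 or more, where 2.08% of all genes were, none was at -1 or less, and the median was 0.05. The member was Akr1b8, an aldo-keto reductase, at 0.629, 0.628, 0.662 and 1.51 (1.19), high on heterozygous sucrose alone. Aldh2, the mitochondrial aldehyde dehydrogenase, followed at 4.70, 3.45, 3.31 and 3.56 (0.55), where wild-type starch was the high array. No gene passed 1 among 32 for sugar transport and glycolysis (median -0.06), 47 for the respiratory chain (-0.03), 70 for ribosomal proteins (0.04), 25 for myelin (0.04) or 14 control genes (0.02). Astrocytes had 2 of 22 genes at 1 or more (all genes: 2.08%), and both were under 1 with normexp (0.95 and 0.98). Gfap, the intermediate filament of astrocytes, read 2.05, 1.29, 2.24 and 2.86 (1.03), and Agt, angiotensinogen, read 0.376, 0.372, 0.326 and 0.679 (1.07). In Gfap wild-type sucrose was the low array, and in Agt heterozygous sucrose was the high one.

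Of 31 cortical interneuron genes, 2 were at 1 or more (all genes: 2.08%) and 1 at -1 or less (all genes: 0.794%), with a median of -0.04. They were Calb2 (1.34), Prox1 (1.60) and Tac1 (-2.01), of which Calb2 is also in the olfactory and Tac1 in the striatal list. Microglia and complement genes had a median of 0.18, with 20 of 27 above 0 (all genes: 50.5%). Ccl3, a chemokine, was the member past 1 at 0.0413, 0.0258, 0.0304 and 0.0459 (1.27, or 0.66 with normexp). No member passed 1 among 22 glucocorticoid receptor and target genes (median 0.06), 25 endothelial genes (0.05), 16 pericyte and smooth muscle genes (-0.10), 23 fibroblast genes (-0.10) or 5 sex-linked genes (-0.25). Of 12 melanocyte genes 1 passed in each direction (all genes: 2.08% positive and 0.794% negative), Gpnmb at 1.09 and Mlana at -1.09. With normexp they were at 0.62 and -0.70. The list median was 0.27, but 0.07 with the mean over probes.

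**Figure D5:**
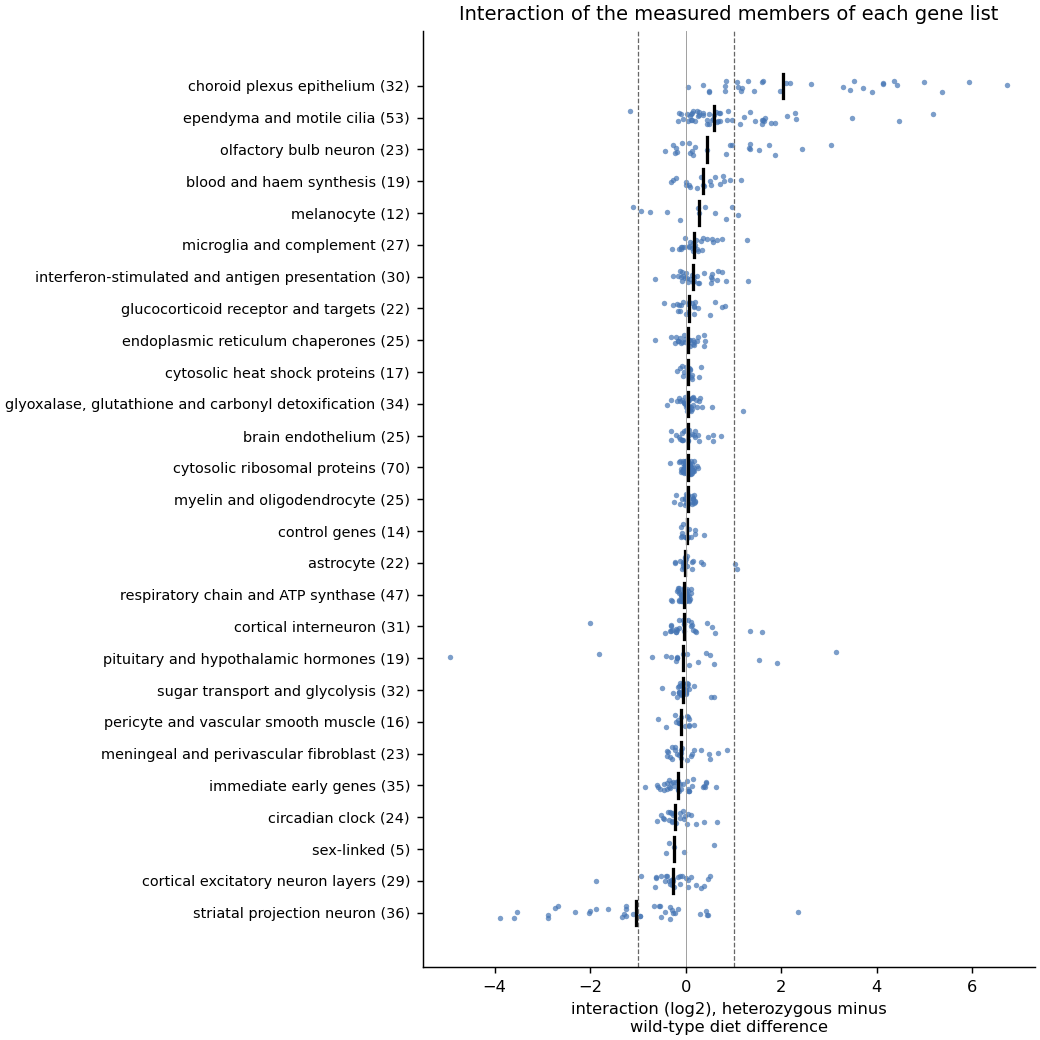
Each point is the interaction (log2) of 1 measured gene, grouped by gene list with the number of measured genes in parentheses; black bars mark the list medians and dashed lines an interaction of 1 in size. Medians run from -1.03 for striatal genes to 2.04 for choroid plexus genes, and lists of general cell functions stay close to 0.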

How the data were processed

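The deposited scanner files, made with Agilent Feature Extraction 11.5.1.1 per the submitters' processing notes, give background-subtracted, detrended intensity per spot, per the file headers. The authors' deposited matrix holds the ratio of that intensity to the array's 75th percentile. From the intensities, log2 values (log2 intensity minus log2 of the 75th percentile over the 59305 non-control spots of the deposited files) were computed with Python 3.11.15, pandas 2.3.3 and numpy 2.4.6. Spots flagged as outliers were left out, spots of a probe were averaged, and probes well above background on all 4 arrays were kept. The alternatives used limma 3.58.1 in R 4.3.3. Names were those of the files (18294 current RefSeq symbols, 863 older). With 1 array per group the model with an interaction has 0 residual degrees of freedom, so no test was possible, and the number of arrays limits the precision. The calculation was tested on simulated data.

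The 27 gene lists and the members were chosen with earlier results of these data known. Named genes were Glo1, the 10 highest and 10 lowest bright genes, the 10 highest and 10 lowest with every probe past 1, the 5 at each end with opposite diet differences of 1 or more, ranked by the smaller of the 2 differences, and up to 8 members per list past 1 (otherwise up to 3). Any other gene named was chosen after its values were seen. Results for 3 genes are not reported here. Probe coordinates are those of the files (mm9), and their exon or UTR annotation was not analysed here.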

Additional observations from a re-analysis of the deposited data

Results flagged for a closer look

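Opposite diet differences of 1 or more in the 2 genotypes were found for 7 genes with positive and 12 with negative interactions. Named here are the 5 of each direction whose smaller diet difference was largest in size, and among the negative ones Six3 (-3.88), Sh3rf2 (-3.54) and Gpr6 (-2.88) had lower interactions than Drd1 but a smaller lesser difference. None of these differences was tested, since each group has 1 array. Lower on sucrose in heterozygous and higher in wild-type mice were Prl (-4.92), Slc10a4 (-3.65), Adora2a (-3.59), Gm5868, an uncharacterised gene (-3.58), and Drd1 (-2.73). Higher on sucrose in heterozygous and lower in wild-type mice were Tmem27 (5.36), Bhmt, which methylates homocysteine (4.04), Aqp1 (3.90), Fzd8, a Wnt receptor (3.35), and Smim22, a small membrane protein (3.25). Of the last 10 genes Drd1 and Aqp1 were read by probes brighter than the median. The second probes of Bhmt and Fzd8 gave 0.73 and 0.79. With normexp Prl was at -1.93, Tmem27 at 1.98, Bhmt at 1.93, Fzd8 at 1.95 and Gm5868 at -2.06. At the level of a list, 31 striatal genes were higher on sucrose in wild-type and lower in heterozygous mice, while 2 had the reverse signs, and that difference was not tested either.

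Among probes outside the interaction, 391 were well above background on the heterozygous sucrose array alone, against 845 on wild-type sucrose alone, 564 on wild-type starch alone and 275 on heterozygous starch alone. List members that were dim on heterozygous starch had levels on heterozygous sucrose at least 86.8-fold (Slc4a5), 64.6-fold (Calml4), 39.8-fold (Tmem212) and 22.9-fold (Krt8) higher.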

How the results depend on the processing

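Every interaction needs all 4 arrays, so no array could be left out. No paired analysis was possible because each group has 1 array. The background correction, the filter on dim probes and the threshold moved counts by over 1.5 times. With normexp 356 probes and 228 genes passed 1 in size, and 80 genes were high on heterozygous sucrose alone. Without the filter on dim probes 5374 probes and 2546 genes passed, and with probes above the median signal alone 120 probes, 89 genes and 37 list members did. At 1.5-fold the counts were 3865 probes and 1745 genes, and at 4-fold 241 and 126. The other scalings, the authors' matrix, kept outlier spots and the mean over probes left the counts within 1.5 times. The share of positive probes was 65.5%, and 56.0% after quantile normalization. The 76 named genes past 1 were picked for size, and several of the 10 alternatives, such as the authors' matrix, hardly alter a value. That no sign changed among their 720 values therefore says little. Of these genes 68 stayed past 1 throughout. The other 8 (Avp, Ccl3, Gpnmb, Itga2b, Mlana, Scgn, Agt and Gfap) went under 1 in size with normexp, Itga2b the furthest at 0.39, and Gfap also with median scaling and the mean over probes. The cause was not tested. Medians of the 9 lists at 0.2 or more in size, likewise picked by size, kept their sign in 89 values. Even so, the cilia median was 0.14 for bright probes alone and the melanocyte median 0.07 with the mean over probes. Dim signal limits many values, as 7.23% of the dimmest quartile of probes passed 1.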

Other observations

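Further bright genes were highest on heterozygous sucrose. One was Npy2r, a presynaptic neuropeptide Y receptor, which read 0.205, 0.194, 0.175 and 0.690, with 2 probes at 2.06 and 2.85. Prox1, a transcription factor of dentate granule cells and some interneurons, read 0.241, 0.293, 0.274 and 1.01 (1.60). Lct, lactase, read 0.173, 0.364, 0.156 and 1.87 (2.51) and Spink8, a protease inhibitor, read 0.220, 0.308, 0.171 and 1.60 (2.74). Nr3c2, the mineralocorticoid receptor, was highest there too, at 2.81, 3.41, 2.89 and 6.22 (0.82).

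Other genes had their departure elsewhere. Slc35f2, a solute carrier, was low on wild-type starch alone, at 0.0916, 0.813, 0.654 and 0.832 (-2.80). Ehd1, which recycles endosomes, was highest on wild-type starch, at 6.16, 2.94, 3.35 and 5.13, with 2 probes at 1.68 and 2.13. The pigment cell genes Dct and Mlana were high in heterozygous mice on either diet. Dct, an enzyme of melanin synthesis, read 0.124, 0.119, 0.954 and 0.482 (-0.93), and Mlana, a melanosome protein, read 0.0246, 0.0269, 0.225 and 0.115 (-1.09), with both heterozygous arrays above both wild-type arrays.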
